A study of Homo sapiens with 30 samples.

Results

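The heat-shock chaperones are proteins that hold and refold other proteins when heat, oxidants or metals unfold them, and HSF1 is the transcription factor best known for switching on their genes. HSF1 binds heat shock elements, short DNA repeats built from the letters GAA in alternating orientation. Sodium arsenite damages proteins through their thiol groups and is a classical inducer of this response, and it also stops translation, so that untranslated mRNA gathers in stress granules. The 10 genes described here are HSF1, the inducible HSP70 copies HSPA1A and HSPA1B, the constitutive HSP70 gene HSPA8, the J-domain cochaperone gene DNAJB1, the nucleotide exchange factor genes HSPH1 and BAG3, the HSP90 genes HSP90AA1 and HSP90AB1, and the small chaperone gene HSPB1. They were taken by symbol from the 60664 genes of the count table. All 10 had 1 row each, and all 10 passed the low-count filter in every fit.

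The cells were 2 Flp-In T-REx HEK293 lines, made from a human embryonic kidney cell line, that express GFP-tagged TIA1a from a tetracycline-switched transgene. TIA1 is an RNA-binding protein of stress granules. One line carries wild-type TIA1a (WT) and the other carries the TIA1a mutation (WDM) that causes Welander distal myopathy, an inherited muscle disease. Cytosol RNA was read from cells left untreated, given tetracycline, or given tetracycline and 0.5 mM sodium arsenite for 60 min. RNA of immunopurified TIA1 granules was read from both tetracycline conditions, with no untreated group. That makes 10 groups of 3 libraries, 18 from cytosol and 12 from the granule fraction. Every tetracycline group, with or without arsenite, carries the induced transgene, so arsenite was never given alone. The granule libraries without arsenite come from cells that had no arsenite, and the labels name both kinds as stress granules. Whether a line is a single clone, whether the cells keep their own TIA1, and whether replicates are separate cultures is not given in the sources used here, so p-values measure the spread between these libraries, which may be technical.

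The library totals ran from 7971585 to 18884843 counts in cytosol and from 5906167 to 27419145 in the granule fraction. TIA1 itself had 3 counts over all 30 libraries, so induction of the transgene could not be checked in this table. Of the markers of the labelled epithelial type, KRT8, KRT18, KRT19 and EPCAM were well above background in cytosol, at medians of 78.5 to 145.5 CPM (each gene's count scaled to a common library total, with TMM factors), while CDH1 had a median of 7.81. Of the other HEK293 markers read, NEFL and INA were present, while PAX8 and NEFM had medians of 0.0554 and 0.148 CPM in cytosol. Of 7 markers of other cell types, the blood marker HBB was at 0 counts in all 30 libraries and CD3E in 28, and PTPRC, PECAM1 and PDGFRB had cytosol medians of 0.0766 to 0.147 CPM. VWF and COL1A1 were detected in every library, with medians of 0.625 and 2.16 CPM in cytosol and 1.36 and 3.93 CPM in the granule fraction. A summed list of 3 nuclear-retained RNAs (NEAT1, MALAT1 and KCNQ1OT1, all 3 detected in every library) had 220 to 794 CPM in cytosol and 2200 to 3585 CPM in the granule fraction. RNA was pooled over many cells, so a change in the number of responding cells and a change within each cell cannot be told apart.

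The promoters were read first, because HSF1 acts through them. The RefSeq promoter table (GRCh38.p14) held 14 windows for 9 of the 10 genes, all except HSF1. The 250 bases before each start site were searched on both strands for a pair of adjoining units, GAANNTTC or TTCNNGAA. The motif stood in 7 of the 14 windows and in 7 of the 9 genes, against 11.6% of 35116 promoters and 14.0% of 27305 genes in the table. A run of 3 alternating units, which overlaps the paired motif, stood in 3 of the 14 windows and in 3 of the 9 genes. These were HSPA8, HSP90AA1 and HSP90AB1, against 0.441% of all promoters and 0.557% of genes. The windows of HSPH1 and BAG3 had 0 matches to these exact letters. A match is a description of letters, not a measured HSF1 site. The stretches around the matches of HSPA8 (218 bases) and HSP90AB1 (96 bases) are not printed. Those of the other genes with a match are shown 5′ to 3′ on the gene's strand, with the GAA and TTC units of the motif in capitals.
HSPA1A, chr6:31815422-31815459, plus strand: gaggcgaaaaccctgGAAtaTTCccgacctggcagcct
HSPA1B, chr6:31827618-31827655, plus strand: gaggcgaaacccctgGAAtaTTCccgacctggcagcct
DNAJB1, chr19:14518422-14518489, minus strand: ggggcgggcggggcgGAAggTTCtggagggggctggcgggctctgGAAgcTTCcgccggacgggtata
HSP90AA1, chr14:102087090-102087147, minus strand: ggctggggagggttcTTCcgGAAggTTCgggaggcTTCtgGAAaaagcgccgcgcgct
HSPB1, chr7:76302476-76302513, plus strand: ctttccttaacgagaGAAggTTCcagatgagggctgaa

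HSPA1A and HSPA1B carry the same 8 letters, and their upstream windows were identical at 235 of 251 aligned positions (93.6%). The 7 genes with a match thus include 2 near-identical copies. Of the 3 windows of DNAJB1, 1 holds 2 separate matches. Of the 2 windows of HSP90AA1, 1 has 3 matches, of which a pair overlaps to form the 3-unit run. The other windows of these genes have 0. In the tests, HSPA1A, HSPA1B and DNAJB1, with a match, and BAG3, without one, were called higher with arsenite in both lines and fractions. Of all genes, 13.7% to 18.7% were called higher in each of these comparisons, and the share in all of them was not counted. HSPA8, HSP90AB1 and HSPB1, with a match, were not called higher with arsenite in the main fits, and HSPA8 was called lower in the WDM granule fraction. HSPA8 and HSP90AB1 each have a window with 4 matches and 2 runs of 3 units. HSP90AA1, with a 3-unit run, was called in no comparison of the main fits, though some refits called it (given below). A link of match and response was not tested.

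HSPA1A (ENSG00000204389, chromosome 6, 31815543 to 31817946) and HSPA1B (ENSG00000204388, chromosome 6, 31827738 to 31830254) are single-exon neighbours in GRCh38. Of the 50-base words of HSPA1A, 75.1% also occur in HSPA1B, and 36.6% of the exon length of HSPA1B lies under an unnamed gene on the same strand (ENSG00000285565). How the authors' counter treated reads that fit several genes is not given in the sources used here, so the split between the copies is uncertain. HSPA1A made up 6.95% to 9.55% of the summed counts, with a median of 8.10% over 30 libraries. The sum of both, called HSPA1 below, does not depend on that split and is therefore the safer reading, and the copies are given beside it. If reads that fit several genes were dropped, they are missing from the sum as well. HSPA8, HSP90AA1, HSP90AB1 and HSPB1 also share 13.5% to 19.7% of their 50-base words with other genes, mainly processed pseudogenes.

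Levels of different genes were compared per kb of transcript. In untreated WT cytosol, HSPA8, the housekeeping HSP70, was the most abundant at 723 CPM per kb of its main transcript, followed by HSP90AB1, the constitutive HSP90, at 483. HSPA1 followed at 313 and HSP90AA1, the stress-inducible HSP90, at 249. Levels of genes that share sequence would be too low if reads that fit several genes were dropped. DNAJB1, HSPH1 and HSPA1A lay between 27.4 and 32.0, HSF1 at 16.3, BAG3 at 8.26 and HSPB1 at 7.06. With all annotated exons as the length, the order changed: HSP90AB1 (414 CPM per kb) stood above HSPA8 (338), and DNAJB1 fell from 32.0 to 8.75. HSPB1, which codes for HSP27, had only 45 to 104 counts per cytosol library and 4 to 53 per granule library.

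**Figure D1:**
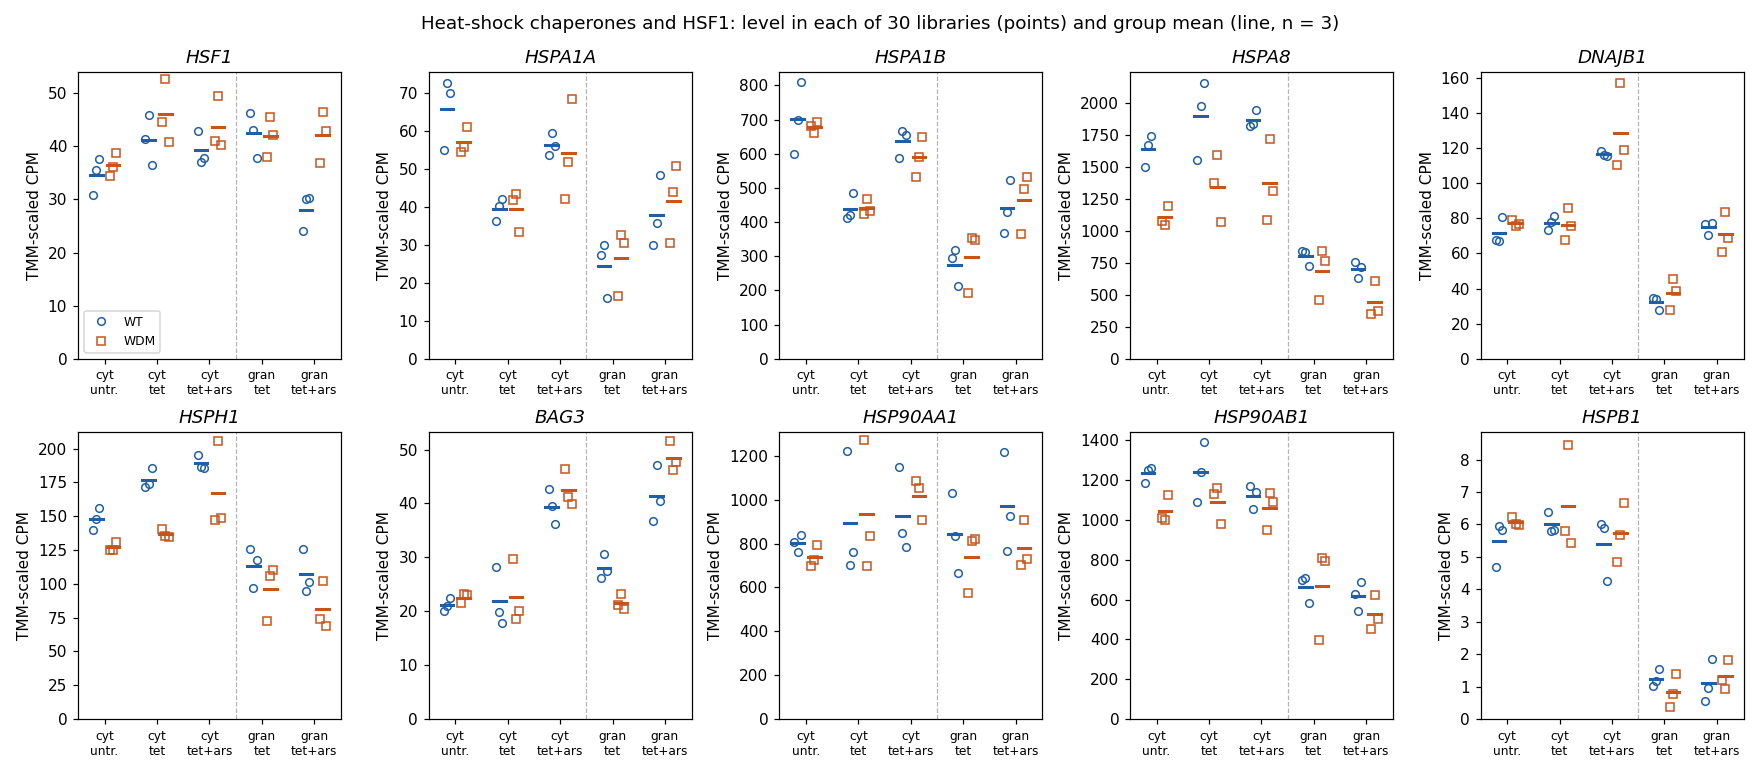
TMM-scaled CPM (vertical axis, linear from 0) of each gene in all 30 libraries, by fraction and treatment (horizontal axis; untr., untreated; tet, tetracycline; ars, arsenite); circles are WT, squares WDM, and short lines the mean of 3 libraries. HSPA1A and HSPA1B dip with tetracycline and come back with arsenite in cytosol, DNAJB1 and BAG3 rise with arsenite, and HSPB1 lies near 1 CPM in the granule fraction.

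Tetracycline alone lowered the inducible HSP70 copies in both lines and left no other member called. This comparison asks what switching on the transgene, with the drug that does it, changed before any stress. HSPA1 had 656, 773 and 879 CPM in the untreated WT libraries and 448, 460 and 528 CPM with tetracycline. In WDM it had 737, 715 and 753 CPM untreated and 464, 510 and 465 CPM with tetracycline. All tetracycline libraries lay below all untreated ones in each line. HSPA1 fell by 0.70 on the log2 scale in WT (SE 0.10, edgeR Benjamini-Hochberg adjusted p 0.00141) and by 0.62 in WDM (SE 0.10, edgeR adjusted p 0.00156). HSPA1A alone changed by -0.75 and -0.54, and HSPA1B by -0.69 and -0.63, in WT and WDM. Only 3.49% of the 16670 genes tested in WT, and 5.86% in WDM, had a lower fold change than HSPA1A. So 2 of 10 members were called in each line, where 5.31% of all genes were called in WT and 6.30% in WDM. Those 2 are the HSPA1 copies, which share sequence and are not independent readings. All counts out of 10 in this report take the copies as separate members. HSPA1A in WDM was no longer called in 5 of 6 refits with 1 library removed, all but the one without WDM tetracycline replicate 2, with an adjusted p of up to 0.142, whereas the sum and HSPA1B kept theirs in each.

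The other 8 members did not pass the test with tetracycline. HSPH1 was higher in all tetracycline libraries than in all untreated ones of its line, at 171 to 186 against 140 to 156 CPM in WT and 135 to 141 against 125 to 131 CPM in WDM, with log2 differences of 0.25 and 0.10 (edgeR adjusted p 0.138 and 0.598). HSF1 had 34.7 ± 3.42 CPM untreated and 41.2 ± 4.66 with tetracycline in WT, and 36.4 ± 2.15 and 46.0 ± 6.01 CPM in WDM (SD, n = 3; edgeR adjusted p 0.236 and 0.0942). HSP90AA1 spread widely with tetracycline: its WT libraries had 1223, 704 and 762 CPM and its WDM libraries 1274, 697 and 837 CPM, against 699 to 840 CPM over the 6 untreated libraries. BAG3 was also highest in replicate 1, with 28.3, 20.0 and 17.7 CPM in WT and 29.7, 18.5 and 20.0 CPM in WDM. In those libraries the nuclear-retained RNA list had 517, 226 and 220 CPM in WT and 667, 341 and 549 CPM in WDM. Replicate 1 was thus the highest of these tetracycline libraries for both genes and for the nuclear list in each line. The untreated WDM libraries had 615 to 670 CPM of the nuclear list. They had 699 to 793 CPM of HSP90AA1 and 21.4 to 23.2 CPM of BAG3. The part of nuclear RNA in this spread was not tested.

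**Figure D2:**
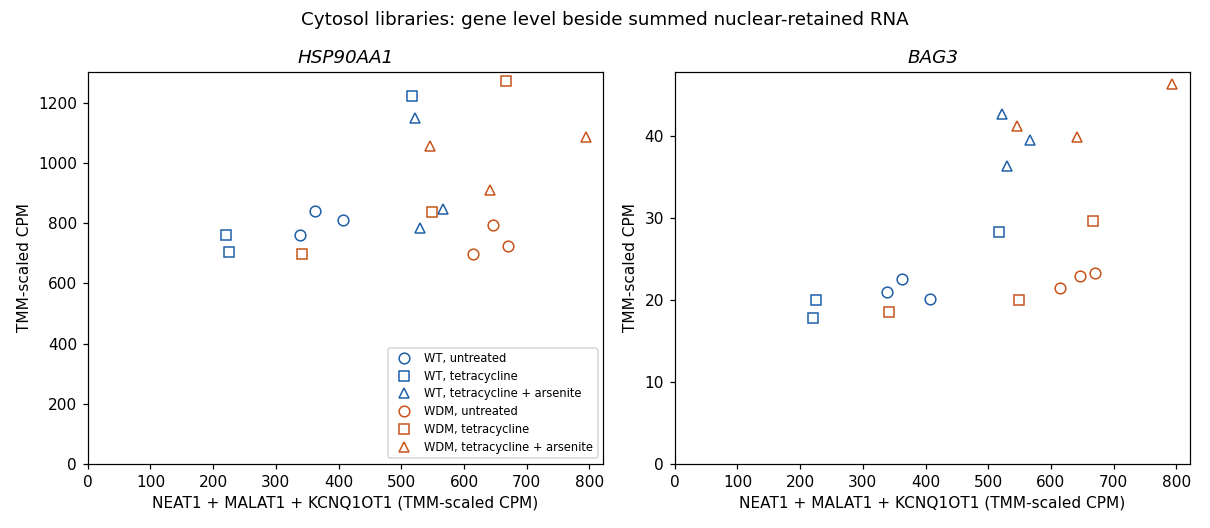
Level of HSP90AA1 (left) and BAG3 (right) in TMM-scaled CPM against the summed level of 3 nuclear-retained RNAs in the 18 cytosol libraries; blue is WT, orange WDM, circles untreated, squares tetracycline and triangles tetracycline with arsenite. The tetracycline libraries with the highest nuclear RNA (517 CPM in WT and 667 in WDM) also have the highest HSP90AA1 of their group. The untreated WDM libraries have 615 to 670 CPM of nuclear RNA and 699 to 793 CPM of HSP90AA1.

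Arsenite was then compared with tetracycline alone in cytosol, which asks what an hour of oxidative stress changed on top of the transgene. DNAJB1, BAG3 and both HSPA1 copies rose in WT and WDM, HSPH1 was called in WDM and not in WT, and no member was called lower. In WT 4 of 10 members were called, all higher, where 29.0% of all genes were called in either direction and 13.7% were higher. In WDM 5 of 10 were called, all higher, where 28.8% of all genes were called and 14.1% were higher. These comparisons use the same tetracycline libraries as those above. Scaling by library size alone, in place of TMM (which assumes that most genes do not change), moved the median log2 change of all genes in WT from -0.02 to 0.11 and the share of calls that were higher from 47.1% to 76.7%, and in WDM that share went from 48.8% to 66.8%. The counts of members called higher stayed at 4 and 5.

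DNAJB1, whose protein delivers clients to HSP70 and stimulates its ATPase, had 73.6, 77.6 and 81.4 CPM with tetracycline and 118, 116 and 116 CPM with arsenite in WT. In WDM it had 67.4, 85.9 and 75.4 CPM with tetracycline and 110, 157 and 119 CPM with arsenite. The groups did not overlap in either line. DNAJB1 rose by 0.58 on the log2 scale in WT (SE 0.11, edgeR adjusted p 0.000898) and by 0.75 in WDM (SE 0.11, edgeR adjusted p 0.000109).

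BAG3, which links HSP70 to small chaperones and to autophagy of aggregates, showed the largest rise of the 10 in cytosol. Its arsenite libraries had 42.6, 39.5 and 36.2 CPM in WT and 46.3, 41.2 and 39.9 CPM in WDM, all above the highest tetracycline library of their line (28.3 and 29.7 CPM). The mean was 1.79 times that of tetracycline in WT and 1.87 times in WDM. On the log2 scale the rise was 0.83 in WT (SE 0.15, edgeR adjusted p 0.000687) and 0.92 in WDM (SE 0.15, edgeR adjusted p 0.000290). Of all genes tested, 92.3% in WT and 94.6% in WDM had a lower fold change than BAG3. The nuclear-retained list stood at 220 to 517 CPM with tetracycline and 521 to 567 CPM with arsenite in WT, and at 341 to 667 and 546 to 794 CPM in WDM. Its part in the rise was not tested.

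HSPA1 had 643, 725 and 710 CPM with arsenite in WT and 575, 641 and 716 CPM in WDM, all above the tetracycline libraries of their line. The rise was 0.52 on the log2 scale in WT (SE 0.10, edgeR adjusted p 0.00109) and 0.43 in WDM (SE 0.10, edgeR adjusted p 0.00497). HSPA1A rose by 0.50 and 0.46 and HSPA1B by 0.52 and 0.42. In WDM the HSPA1A groups overlapped, at 33.3 to 43.5 CPM with tetracycline and 42.0 to 68.4 CPM with arsenite. HSPA1A lost its call in WT without arsenite replicate 2 (adjusted p up to 0.0556), and in WDM without tetracycline replicate 3 or arsenite replicate 3, or with only those groups in the fit (adjusted p up to 0.140).

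HSPH1, which codes for the HSP110 exchange factor HSP105, had 171, 174 and 186 CPM with tetracycline and 196, 186 and 186 CPM with arsenite in WT, a log2 change of 0.08 that was not called (edgeR adjusted p 0.537). In WDM its libraries had 141, 135 and 135 CPM with tetracycline and 147, 205 and 149 CPM with arsenite. The rise in WDM was 0.29 (SE 0.10, edgeR adjusted p 0.0312) and leaned on arsenite replicate 2: the call was lost without it, and also without tetracycline replicate 2 or 3 or with only those groups in the fit (adjusted p up to 0.256). The difference in its response between the lines was 0.20 (SE 0.14) and was not called (edgeR adjusted p 1). The remaining 5 members were not called, with log2 changes from -0.19 (HSPB1 in WDM) to 0.12 (HSP90AA1 in WDM). HSF1 itself had 39.2 ± 3.15 CPM with arsenite in WT and 43.6 ± 5.11 CPM in WDM (SD, n = 3), log2 changes of -0.09 and -0.07 (edgeR adjusted p 0.602 and 0.660).

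**Figure D3:**
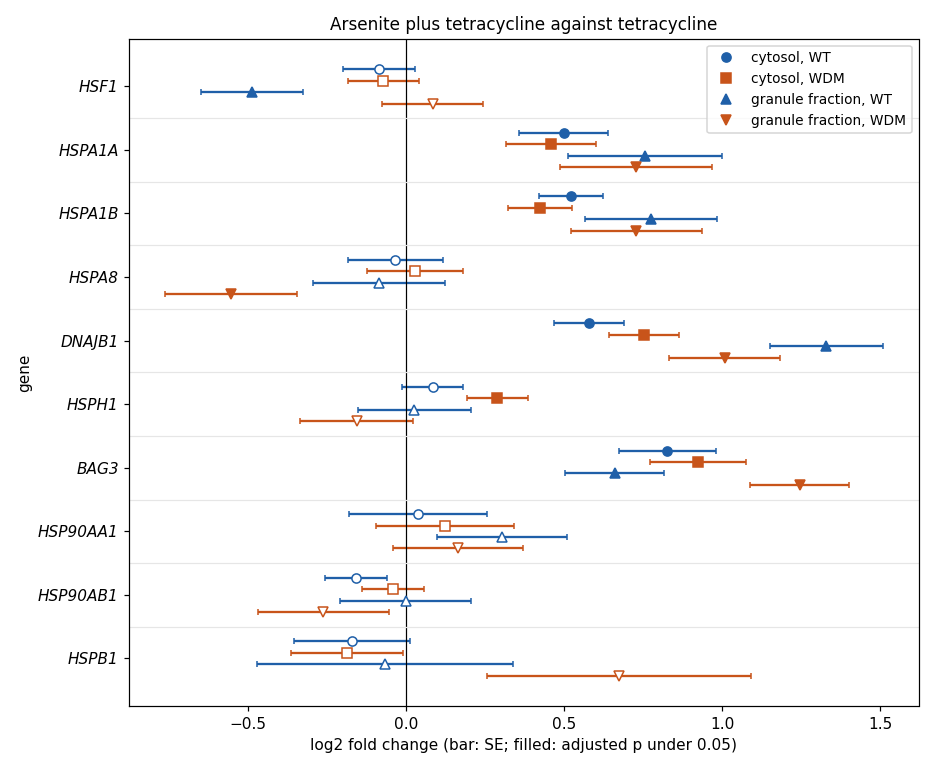
log2 fold change of tetracycline plus arsenite over tetracycline for each gene (horizontal axis; bars are the SE), in cytosol (circles WT, squares WDM) and in the granule fraction (upward triangles WT, downward triangles WDM); filled symbols have an adjusted p under 0.05. DNAJB1, BAG3 and the HSPA1 copies are called higher in all 4 settings, from 0.42 for HSPA1B to 1.33 for DNAJB1.

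Set against untreated cytosol, the arsenite groups showed DNAJB1, BAG3 and HSPH1 above the starting level and HSPA1 not. DNAJB1 was higher by 0.68 on the log2 scale in WT and 0.73 in WDM (SE 0.11 each, edgeR adjusted p 0.000201 and 5.45e-05). BAG3 was higher by 0.87 and 0.91 (edgeR adjusted p 0.000403 and 0.000131), with 20.0 to 22.5 CPM in untreated WT and 21.4 to 23.2 CPM in untreated WDM. HSPH1 was higher by 0.33 and 0.39 (edgeR adjusted p 0.0139 and 0.00356), and in WT its call was lost without untreated replicate 1 or arsenite replicate 1 (adjusted p up to 0.0640). HSPA1 stood at 0.901 times its untreated mean in WT and 0.877 times in WDM, log2 differences of -0.17 and -0.20 that were not called (edgeR adjusted p 0.198 and 0.130). These 3 of 10 members were the ones called higher in each line, where 15.2% of all genes were higher in WT and 19.0% in WDM. HSP90AA1 in WDM had 909 to 1088 CPM with arsenite and 699 to 793 CPM untreated, while its WT ranges overlapped. Its log2 difference in WDM, 0.46, was not called (edgeR adjusted p 0.110). With the replicate number as a block, or only those groups in the fit, it was called (edgeR adjusted p down to 0.00184).

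The levels over the 6 cytosol groups put these changes in order. For HSPA1 the untreated groups were highest (769 ± 112 CPM in WT and 735 ± 18.7 in WDM), the arsenite groups next (692 ± 43.9 and 644 ± 70.5) and the tetracycline groups lowest (478 ± 43.1 and 480 ± 26.5; SD, n = 3). The ranges of the untreated and arsenite groups overlapped in each line, while those of the tetracycline groups lay apart. For BAG3 and DNAJB1 the untreated and tetracycline groups overlapped in each line and the arsenite groups lay above both.

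The genes most like HSPA1 over the 18 cytosol libraries were found by Pearson's r of log2 CPM among 11333 genes, as a description over libraries that share their groups, depth and scaling. They were EIF4A2 (0.885), a translation initiation factor gene, KHDC4 (0.878), SLF1 (0.866), FBF1 (0.865) and RSRP1 (0.849). EIF4A2 had 288 ± 16.5 CPM untreated, 164 ± 25.5 with tetracycline and 275 ± 9.94 with arsenite in WT, and 375 ± 13.9, 170 ± 23.7 and 276 ± 25.1 CPM in WDM (SD, n = 3). The other members were far from that pattern, with r of 0.227 for DNAJB1, 0.166 for BAG3 and -0.524 for HSF1.

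In the granule fraction arsenite raised DNAJB1, BAG3 and both HSPA1 copies in each line, and lowered HSF1 in WT and HSPA8 in WDM. This comparison asks whether the pulled-down RNA changed with stress. In each line 5 of 10 members were called, where 30.6% of all genes were called in WT and 36.3% in WDM. DNAJB1 had 34.7, 34.1 and 27.5 CPM without arsenite and 76.5, 70.7 and 77.0 CPM with it in WT, a rise to 2.33 times the mean. In WDM it had 27.8, 45.3 and 38.7 CPM without and 60.6, 83.7 and 68.7 CPM with arsenite. Both pairs of groups were apart. The log2 rise of DNAJB1 was 1.33 in WT (SE 0.18, edgeR adjusted p 8.49e-06), above that of 97.8% of all genes tested, and 1.01 in WDM (SE 0.17, edgeR adjusted p 7.86e-05).

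BAG3 had 26.2, 30.7 and 27.4 CPM without arsenite and 36.7, 47.1 and 40.4 CPM with it in the granule fraction of WT. In WDM it had 21.2, 23.1 and 20.5 CPM without and 51.6, 46.1 and 47.8 CPM with arsenite. Again no libraries overlapped, and the log2 rise was 0.66 in WT (SE 0.16, edgeR adjusted p 0.00236) and 1.24 in WDM (SE 0.16, edgeR adjusted p 1.86e-06). The difference of these rises between the lines was 0.58 (SE 0.22) and was not called (edgeR adjusted p 0.287).

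HSPA1 rose in the granule fraction by 0.77 on the log2 scale in WT (SE 0.21, edgeR adjusted p 0.00727) and 0.73 in WDM (SE 0.21, edgeR adjusted p 0.00822). Its WT libraries had 322, 348 and 230 CPM without and 397, 465 and 571 CPM with arsenite, and its WDM libraries 209, 387 and 377 CPM without and 396, 541 and 582 CPM with arsenite. The lowest arsenite library stood above the highest one without arsenite in each line, by the smaller margin in WDM. The call was lost in WT without tetracycline replicate 3 or arsenite replicate 3 (adjusted p up to 0.0921), and in WDM without tetracycline replicate 1 or arsenite replicate 3 (adjusted p up to 0.0587). HSPA1A alone was less stable: its call was lost without the same libraries in WT (adjusted p up to 0.217), and in WDM without those or without arsenite replicate 2 (adjusted p up to 0.127).

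HSF1 had 46.3, 43.1 and 37.8 CPM without arsenite and 24.0, 30.0 and 30.3 CPM with it in the granule fraction of WT, with no overlap. It fell by 0.49 on the log2 scale (SE 0.16, edgeR adjusted p 0.0237), a call that was lost without tetracycline replicate 1 or 2, without arsenite replicate 1, and with no low-count filter (adjusted p up to 0.116). In WDM HSF1 had 41.9 ± 3.84 and 42.1 ± 4.81 CPM (SD, n = 3; log2 0.08, edgeR adjusted p 0.713). The difference between the lines was 0.57 (SE 0.23, edgeR adjusted p 0.312), so it was not called. HSPA8, the constitutive HSP70 that also uncoats clathrin vesicles, had 461, 846 and 766 CPM without and 354, 605 and 376 CPM with arsenite in WDM. These groups overlapped. HSPA8 fell by 0.55 (SE 0.21, edgeR adjusted p 0.0390), and 4 of the 6 fits that left out a library lost the call (without tetracycline replicate 2 or 3, or arsenite replicate 1 or 3; adjusted p up to 0.215), as did the fit of only those groups. In WT HSPA8 changed by -0.09, and the difference between the lines was not called (-0.47, SE 0.29, edgeR adjusted p 0.511). A list of 5 mitochondrial RNAs, all detected in every library, had 1610 to 3085 CPM without and 435 to 1027 CPM with arsenite in WT, and 828 to 2800 and 662 to 1147 CPM in WDM. Its part in these changes was not tested.

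Granule fraction and cytosol were then compared within each line and treatment, which asks where the chaperone mRNAs were found. In the main fits no member was called higher in the granule fraction in any of the 4 comparisons. HSPA8, HSPH1, HSP90AB1, DNAJB1 and HSPB1 were lower in all 4, while HSP90AA1 and BAG3 were called in none. Without arsenite 7 of 10 members were lower in WT, where 36.2% of all genes were lower, and 7 of 10 in WDM, where 35.3% were. With arsenite 8 of 10 were lower in WT (35.5% of all genes) and 5 of 10 in WDM (35.7%). The 8 include HSPA1A, whose call was lost with DESeq2 and without cytosol arsenite replicate 2 or 3 or granule arsenite replicate 1 or 2 (adjusted p up to 0.145). Without arsenite the HSPA1A call was lost in WT without granule replicate 3 (adjusted p up to 0.0920), and in WDM without cytosol replicate 1 or 2 or granule replicate 1 (adjusted p up to 0.205). A fold between fractions compares shares of a library and not amounts of RNA per cell. The nuclear-retained list was at 2200 to 3585 CPM in the granule fraction and 220 to 794 CPM in the cytosol of the tetracycline-treated cells, and its part in these differences was not tested.

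HSPB1 was lowest in the granule fraction relative to cytosol. It had 6.39, 5.79 and 5.82 CPM in cytosol and 1.02, 1.17 and 1.53 CPM in the granule fraction of WT cells with tetracycline, on 6, 14 and 37 counts. Its log2 difference was -2.20 in WT (SE 0.34, edgeR adjusted p 1.23e-06) and -2.90 in WDM (SE 0.36, edgeR adjusted p 2.96e-08). With arsenite the difference was -2.21 in WT and -2.13 in WDM (edgeR adjusted p 4.39e-07 and 4.26e-07). Its main transcript of 777 bases is also the shortest of the 10, and the part of length in this difference was not tested.

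HSPA8 had 1558, 1980 and 2155 CPM in cytosol and 842, 839 and 724 CPM in the granule fraction of tetracycline-treated WT cells. The log2 difference was -1.25 in WT (SE 0.22, edgeR adjusted p 8.51e-06) and -1.0 in WDM (edgeR adjusted p 0.000193), and -1.41 and -1.67 with arsenite (edgeR adjusted p 1.86e-06 and 1.46e-07). HSP90AB1 was lower by 0.74 to 1.05 on the log2 scale, with differences of -0.91 in WT and -0.74 in WDM, and of -0.86 and -1.05 with arsenite. HSPH1 differed by -0.65 and -0.54 without and by -0.82 and -1.07 with arsenite. For HSPH1, HSP90AB1, HSPA8, DNAJB1 and HSPB1 all granule libraries lay below all cytosol libraries of the same line and treatment.

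HSPA1 was lower in the granule fraction without arsenite, by -0.69 in WT and -0.60 in WDM on the log2 scale (SE 0.19 each, edgeR adjusted p 0.00227 and 0.00754), the latter not called without the WDM granule tetracycline replicate 1 (adjusted p 0.0683). With arsenite it differed by -0.54 in WT (edgeR adjusted p 0.0146; up to 0.0823 without granule arsenite replicate 1) and by -0.39 in WDM (edgeR adjusted p 0.0732). With the replicate number as a block, the WDM difference was -0.40 with an adjusted p of 0.0440, and that of HSPA1B was -0.39 with an adjusted p of 0.0411. HSF1 was lower with arsenite in WT (-0.48, SE 0.14, edgeR adjusted p 0.00312) and was at -0.09 in WDM (edgeR adjusted p 0.557).

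BAG3 and HSP90AA1 did not pass the test between the fractions in the main fits, but some refits called them. BAG3 was called higher in WT without arsenite with the replicate number as a block, and without cytosol replicate 1 (edgeR adjusted p down to 0.00697). HSP90AA1 was called lower in WDM without arsenite when cytosol replicate 2 was left out (edgeR adjusted p 0.0437). With arsenite it was called lower in WDM with only those groups in the fit (edgeR adjusted p 0.00849). BAG3 had 28.1 ± 2.31 CPM in the granule fraction and 22.0 ± 5.54 in cytosol of WT cells with tetracycline (SD, n = 3), and its 4 log2 differences ran from -0.09 to 0.34 (edgeR adjusted p 0.0671 to 0.710). HSP90AA1 had 845 ± 182 and 896 ± 284 CPM there, and its differences ran from -0.42 to 0.06 (edgeR adjusted p 0.107 to 0.817). The granule libraries of its paralog HSP90AB1 lay below its cytosol libraries throughout, and those of HSP90AA1 overlapped them in 3 of the 4 comparisons, all but WDM with arsenite. That difference between the genes was not tested.

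**Figure D4:**
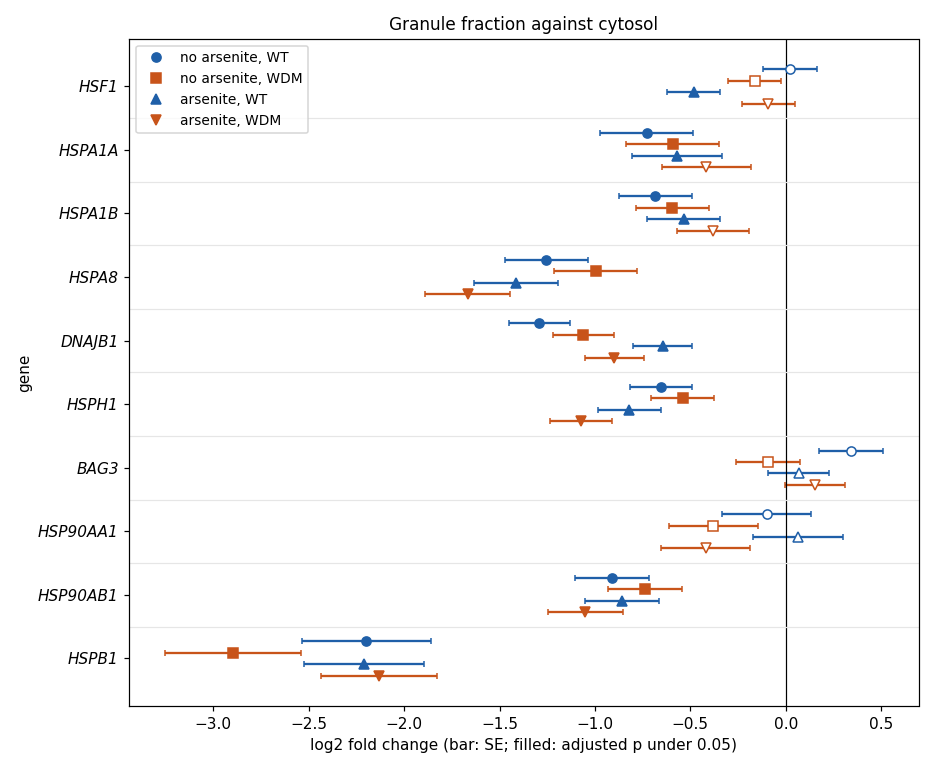
log2 fold change of granule fraction over cytosol for each gene (horizontal axis; bars are the SE), without arsenite (circles WT, squares WDM) and with it (upward triangles WT, downward triangles WDM); filled symbols have an adjusted p under 0.05. HSPB1 lies lowest, between -2.90 and -2.13, and BAG3 and HSP90AA1 have only open symbols.

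Whether arsenite changed the balance between the fractions was tested as an interaction. In WT 1 of 10 members was called, DNAJB1, where 31.4% of all genes were called. Its granule difference went from -1.29 (SE 0.16) without arsenite to -0.65 (SE 0.15) with it, a change of 0.65 (SE 0.22, edgeR adjusted p 0.0249), while the median of all genes changed by -0.21. The call was lost without cytosol tetracycline replicate 3 or granule tetracycline replicate 3 (adjusted p up to 0.0894). HSF1 in WT changed the other way, by -0.50 (SE 0.20, edgeR adjusted p 0.0524), which was not called. HSF1 was called with library size alone and with the replicate number as a block. It was also called in 3 refits with 1 library removed, those without cytosol tetracycline replicate 2, granule tetracycline replicate 3 or granule arsenite replicate 2. In WDM DNAJB1 went from -1.06 to -0.90, a change of 0.16 (edgeR adjusted p 0.629). There 0 of 10 members were called by edgeR, 2 had an unadjusted p under 0.05 (HSPA8 at -0.67 and HSPH1 at -0.53), and DESeq2 called 0, where 24.2% of all genes were called. These changes share the tetracycline libraries with the comparisons above.

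The lines were compared at each treatment, which asks whether the WDM line differed from WT in these genes. HSPA8 was the main difference. It had 1503, 1670 and 1740 CPM in untreated WT and 1079, 1048 and 1199 CPM in untreated WDM, a log2 difference of -0.56 (SE 0.15, edgeR adjusted p 0.0216). With tetracycline it differed by -0.49 (edgeR adjusted p 0.0382) and with arsenite by -0.43, which was not called (edgeR adjusted p 0.0809). The HSPA8 difference with arsenite was called with library size alone, with no low-count filter and with only those groups in the fit (adjusted p 0.0495, 9.39e-05 and 0.0435). The replicate number as a block, and the refit without WDM arsenite replicate 2, gave the call as well. HSPA8 was thus lower in WDM before tetracycline was given as well. In 4 of 6 fits that left out a library the untreated call was lost (without WT replicate 2 or 3, or WDM replicate 1 or 2; adjusted p up to 0.0967). The tetracycline call was also lost in 4 of 6 (without WT replicate 2 or 3, or WDM replicate 1 or 3; up to 0.201), and with only those groups in the fit (0.158). HSPH1 was lower in WDM with tetracycline, 177 ± 7.61 CPM in WT and 137 ± 3.36 in WDM (log2 -0.36, SE 0.10, edgeR adjusted p 0.0160), and lost its call without replicate 3 of either line (adjusted p up to 0.0778). In cytosol 1 of 10 members was called untreated, 2 with tetracycline and 0 with arsenite, where 9.78%, 12.6% and 10.4% of all genes were called. For the arsenite groups 1 member had an unadjusted p under 0.05 and DESeq2 called 0.

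In the granule fraction 0 of 10 members differed between the lines without arsenite by edgeR (5.55% of all genes; 1 member at an unadjusted p under 0.05, BAG3 at -0.38, and 0 by DESeq2). With arsenite 2 of 10 were called, where 7.95% of all genes were. HSPA8 was lower in WDM, with 354, 605 and 376 CPM against 759, 634 and 717 CPM in WT (log2 -0.69, SE 0.21, edgeR adjusted p 0.0387). HSF1 was higher in WDM, with 36.9, 46.4 and 42.8 CPM against 24.0, 30.0 and 30.3 CPM (log2 0.55, SE 0.16, edgeR adjusted p 0.0301). Neither pair of groups overlapped, yet both calls were lost without some single libraries: HSPA8 without replicate 1 or 3 of either line or with library size alone (adjusted p up to 0.210), and HSF1 without WT replicate 1 or WDM replicate 2 or 3 (adjusted p up to 0.193).

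None of the tests of a difference in response between the lines called a member with edgeR. For tetracycline in cytosol 0.0180% of all genes were called, and 0 members had an unadjusted p under 0.05. For arsenite in cytosol 0% of genes were called and 0 members had such a p. For arsenite in the granule fraction 0% of genes were called, and 2 members had such a p (BAG3 and HSF1, given above). For the difference in granule enrichment, without and with arsenite, 0.00551% of all genes were called each time, and 0 members had such a p. DESeq2 called 0 members in all 5 tests. The SE of these differences was at most 0.31 on the log2 scale in cytosol, for HSP90AA1, and reached 0.58 in the granule fraction, for HSPB1.

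The wider chaperone network was read through 81 further genes in 7 lists, of which 71 had enough counts to test. The stress-inducible HSPA6 and the crystallin gene CRYAB were among the 10 that did not. With arsenite in cytosol, 0 of the 71 were higher and 18 lower in WT, where 13.7% of all genes were higher and 15.4% lower, and 3 were higher and 10 lower in WDM (14.1% and 14.8%). The median log2 change was -0.18 in WT and -0.14 in WDM, against -0.02 and -0.00354 for all genes. The count depended on scaling: with library size alone, 5 were higher and 5 lower in WT, and 5 and 6 in WDM.

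The 3 largest falls in each line were those of HYOU1, HSPA13 and HSP90B1, which code for proteins of the endoplasmic reticulum. HYOU1, an exchange factor there, fell from 212 ± 10.6 to 125 ± 3.57 CPM in WT (log2 -0.77, edgeR adjusted p 2.21e-06) and from 167 ± 7.77 to 112 ± 10.2 CPM in WDM (-0.57, edgeR adjusted p 3.50e-05; SD, n = 3). HSP90B1, the HSP90 of that compartment, fell by 0.61 in WT and by 0.52 in WDM on the log2 scale, and HSPA13 by 0.62 and by 0.58. In WDM the HSP90 cochaperone gene CHORDC1 rose from 51.1 ± 2.29 to 71.6 ± 6.91 CPM (log2 0.49, edgeR adjusted p 0.000511), SIRT1, a deacetylase that acts on HSF1, rose by 0.33, and HSF2BP by 0.39 (edgeR adjusted p 0.0477). HSF2BP was no longer called in 5 of 6 refits with 1 library removed, all but the one without arsenite replicate 2, and with DESeq2, no low-count filter or only those groups in the fit (adjusted p up to 0.206). SIRT1 lost its call with only those groups in the fit (adjusted p 0.0726).

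In the granule fraction arsenite left 12 of the 71 genes higher and 2 lower in WT, where 16.5% of all genes were higher and 14.1% lower. In WDM 10 were higher and 14 lower, where 18.7% and 17.7% of all genes were. The chaperonin list differed most in count: 7 of its 10 genes were lower in WDM, with a median of -0.71, and 0 in WT, with a median of -0.11. The difference between the lines was not tested for the list.

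Between the fractions the wider network was mostly lower in the granule libraries. Of the 71 genes, 55 were lower and 6 higher in WT cells with tetracycline, and 55 and 7 in WDM. With arsenite 49 were lower and 7 higher in WT, and 52 and 7 in WDM. Over the 4 comparisons, 35.3% to 36.2% of all genes were lower and 35% to 39.5% higher. The 10 chaperonin genes, which code for the TRiC ring and the mitochondrial HSP60 and HSP10, were lower in all 4 comparisons, with medians from -2.01 to -1.44. TCP1 was lower by -2.03 in WT without arsenite and by -2.36 in WDM with it. HSBP1, which codes for a small HSF1-binding protein, had 33.6 ± 4.82 CPM in the granule fraction and 243 ± 40.5 in cytosol of WT cells with tetracycline (log2 -2.87, edgeR adjusted p 3.37e-14), and -3.35 in arsenite-treated WDM cells.

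A few genes went the other way. EP300, the acetyltransferase that modifies HSF1, was higher in the granule fraction in all 4 comparisons, with 221 ± 36.5 against 72.7 ± 38.0 CPM in WT cells with tetracycline (log2 1.58, edgeR adjusted p 6.58e-06) and a difference of 1.77 in WT and 1.62 in WDM with arsenite. TTC5, a cofactor of EP300, was higher by 1.81 in WT and 1.57 in WDM with arsenite. SIL1, an exchange factor of the endoplasmic reticulum, was higher by 1.26 in WT and 1.19 in WDM without arsenite. The list of heat shock factors and regulators had 4 higher and 3 lower of 8 genes without arsenite, and 3 higher and 3 lower with it, in each line. Of all genes, 39.5% were higher and 36.2% lower in WT without arsenite, and 35.8% and 35.3% in WDM. With arsenite 35% of all genes were higher and 35.5% lower in WT, and 36.3% and 35.7% in WDM. The list as a whole was thus not far from these shares. The count with arsenite depended on scaling: in WDM it was 5 higher and 3 lower with DESeq2's size factors (RLE) and 4 and 3 with library size alone, and in WT it was 4 and 3 with RLE.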

How the data were processed

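The 30 libraries were made with a stranded total RNA kit after ribosomal RNA depletion, per the labels' protocols. The authors deposited 1 table of raw counts per gene, and per the submitters' processing notes Trimmomatic, STAR, Picard, featureCounts and GRCh38 were used. Versions, the strand setting and the treatment of reads that fit several genes are not given in the sources used here. Groups were taken from the sample labels. The counts were fitted with edgeR 4.0.16 (quasi-likelihood test, filterByExpr with a minimum count of 10, TMM scaling) in R 4.3.3, in 3 fits: 18 cytosol libraries (16670 genes), 12 granule libraries (18366) and the 24 libraries with tetracycline (18141). Benjamini-Hochberg adjustment covered all genes tested in each of 24 comparisons, of which 7 were interactions, with a threshold of 0.05. HSPA1A and HSPA1B were also summed before fitting. Scaled counts (CPM) used TMM factors over all 30 libraries. Totals were 5906167 to 27419145 counts, and replicates differed by more than sampling noise (chi-square per degree of freedom 1.63 to 40.7). The scripts were tested on simulated counts.

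Alternatives were DESeq2 1.42.0, other scaling, no filter, only the groups compared, a replicate block, and each library left out. Deviations of same-numbered libraries correlated above 0.1 in every pair in 2 of 17 comparisons. These were arsenite in the WDM granule fraction (r 0.108 to 0.464) and WDM granule against cytosol with arsenite (0.311 to 0.568). The numbers may pair the libraries there, by this check of the data and not by a label. Differently numbered libraries of these groups were not compared. Gene models were GENCODE 44 on GRCh38. The members, lists and tests were chosen with earlier results of these data known. Besides the 10 members, chaperone genes were named by the largest changes, up to 3 per direction and comparison, among those called, with no overlap between groups and a higher-group mean of 5 CPM or more. The 5 genes most like HSPA1 were named by correlation.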

Additional observations from a re-analysis of the deposited data

Results flagged for a closer look

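DNAJB1 in WT had a different granule-to-cytosol ratio with arsenite than without it, by the interaction test. The log2 difference between the fractions was -1.29 without arsenite and -0.65 with it, a change of 0.65 (SE 0.22, edgeR adjusted p 0.0249). The granule libraries had 34.7, 34.1 and 27.5 CPM without and 76.5, 70.7 and 77.0 CPM with arsenite, and the cytosol libraries 73.6, 77.6 and 81.4 CPM without and 118, 116 and 116 CPM with it. In WDM the change was 0.16 (SE 0.22, edgeR adjusted p 0.629).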

How the results depend on the processing

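Over the members and named chaperone genes, 3902 of 4026 refitted values kept their direction or lack of a call, 79 lost a call and 45 gained one. With a call in either fit, 0 reversed, while 244 of the 3902 changed sign without a call in either. Counts of members called moved as follows. With only the groups compared in the fit, 6 members were called in WT for arsenite against untreated (3 in the report), 3 in WDM for arsenite against tetracycline in cytosol (5), 8 in WDM for granule against cytosol with arsenite (5), and, between the lines in cytosol, 4 untreated (1), 1 with tetracycline (2) and 1 with arsenite (0). The calls over all genes moved in these fits as well. For the first comparison they were 7611 of 15516 genes (5390 of 16670 in the report). For the others, in order, they were 1921 of 16067 (4804 of 16670), 12419 of 17707 (13065 of 18141), 5463 of 15158 (1631 of 16670), 852 of 15239 (2108 of 16670) and 1491 of 16165 (1726 of 16670). With library size alone, 2 were called for the change of enrichment in WT (1), 5 in WDM for arsenite against untreated (3), and, between the lines with arsenite, 1 in cytosol (0) and 1 in the granule fraction (2). Over all genes, library size alone called 5584 of 18141, 6492 of 16670, 1701 of 16670 and 1357 of 18366 there (5704, 6513, 1726 and 1460 in the report). With no filter 1 was called between the lines in cytosol with arsenite (0), where 1954 of 35782 genes were called (1726 of 16670 in the report). The replicate block gave 2, 5 and 1 calls for the change of enrichment in WT, arsenite against untreated in WDM and the lines in cytosol with arsenite, and changed no other count by over 1.5 times. Over all genes, the block called 6288 of 18141, 7318 of 16670 and 2314 of 16670 in those comparisons (5704, 6513 and 1726 in the report). The cause was not tested. Library size alone also moved the share of all calls that were higher for arsenite against untreated from 47.1% to 64.3% in WT and from 48.7% to 58.9% in WDM, for tetracycline in WT from 55.1% to 43.9%, and between the lines from 45.9% to 56.0% in cytosol with tetracycline and from 51.7% to 66.0% in the granule fraction with arsenite.

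With each library left out in turn, the number of members called ran, in WT and WDM, from 2 to 2 and 1 to 2 for tetracycline, 3 to 5 and 3 to 5 for arsenite in cytosol, 2 to 3 and 3 to 4 for arsenite against untreated, and 3 to 5 and 2 to 5 for arsenite in the granule fraction. For granule against cytosol it ran from 6 to 8 and 5 to 7 without arsenite and from 6 to 8 and 5 to 7 with it, and for the change of enrichment from 0 to 2 and 0 to 3. Between the lines it ran in cytosol from 0 to 1 untreated, 0 to 3 with tetracycline and 0 to 2 with arsenite, and in the granule fraction from 0 to 0 and 0 to 2. It was 0 in each test of a difference in response between the lines. The rises of DNAJB1 and BAG3 with arsenite kept their calls in both lines and fractions under each of these settings, as did the falls of HSPA1B and of the HSPA1 sum with tetracycline.

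With 3 libraries a group, and 4 to 53 counts of HSPB1 per granule library, small changes could not be seen.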
